A study of Mus musculus with 27 samples.

Results

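RU521 is a small-molecule inhibitor of the DNA sensor cGAS, and gene expression was measured in mouse dorsal root ganglia after sciatic nerve injury with and without it. The comparison was made by treatment label and not by any measured value: the 3 RU521 injured libraries were set against the 3 WT injured libraries. These are 6 of the 27 libraries of the series and 6 of its 15 ganglion libraries, and 18517 of the 55367 genes in the ganglion table had enough reads to be tested. RU521 injured ganglia came from wild-type mice with sciatic nerve injury and RU521, which per the series text was injected into the sciatic nerve. WT injured ganglia came from wild-type mice with sciatic nerve injury and no RU521 in the label. Both were collected 3 days after injury, and both are labelled as L4-L5 ganglia. WT sham ganglia, from wild-type mice after sham surgery, are given as levels only, as are Ptpn2 KO injured and Ptpn2 KO sham ganglia where a value needs them, with 3 libraries each. The labels and series text leave out the dose of RU521, the age and sex of the mice, and whether WT injured mice received a vehicle injection, so the compound and the injection cannot be told apart. The labels do not say whether replicates are separate animals or pools, so the p-values measure spread between libraries only. That spread was estimated over all 15 ganglion libraries, including the sham and knockout groups, and not over the 6 compared libraries alone.

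Dorsal root ganglia hold the cell bodies of sensory neurons together with the satellite glia around them, Schwann cells along their axons, macrophages, fibroblasts and vessels. After a cut or crush of the sciatic nerve, the neurons switch on injury genes, and genes of peptides and ion channels of the intact neuron commonly fall. cGAS binds DNA in the cytosol and makes the messenger cGAMP, which activates STING. STING recruits the kinase TBK1, which activates the transcription factor IRF3, and the usual readout of the pathway is a rise of interferon-stimulated genes.

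RU521 replicate 1 stood apart from the other RU521 injured libraries. Over 11783 genes, its log2 levels correlated at 0.890 to 0.908 (Pearson, across genes of a library, which are not independent) with the WT injured libraries and at 0.922 to 0.965 with the WT sham libraries. RU521 replicate 2 correlated at 0.954 to 0.961 with WT injured and at 0.901 to 0.903 with WT sham libraries, and RU521 replicate 3 at 0.931 to 0.943 with WT injured and at 0.915 to 0.941 with WT sham libraries. Replicate 1 also had the fewest genes with a read, 28803 against 32488 and 30938 in RU521 replicates 2 and 3, and 33275 to 34340 in WT injured libraries. Mitochondrial genes took 7.83%, 15.5% and 11.3% of counts in RU521 injured libraries, against 13.2% to 15.7% in WT injured libraries. Depth did not separate the groups: RU521 injured libraries held 15562227 to 16914909 counts, and WT injured libraries 15450792 to 18418172. Sprr1a, a small proline-rich protein induced in axotomised neurons, had 107, 307 and 238 CPM in RU521 injured libraries, against 328, 718 and 637 CPM in WT injured libraries, and 1.52, 2.61 and 1.65 CPM in WT sham libraries. Results are therefore given with all 6 libraries and, where calls were made, again without RU521 replicate 1. The tissue label held in all 6 libraries: all 21 sensory neuron markers were detected, and their summed level was 12018, 6280.2 and 9180.5 depth-scaled counts (CPM) in RU521 injured libraries, against 6560.1, 6254 and 6307 CPM in WT injured libraries.

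Promoters are printed for 4 genes that carry the results: Cartpt and Uts2b, peptide genes among those that rose most, and C1qc and C1qb, neighbouring genes for chains of one protein, of which C1qc fell and C1qb did not pass the test. Each run is 300 bases of RefSeq sequence on GRCm38.p6, 250 bases before the gene's start and 50 after it, 5′ to 3′ on the gene's own strand, which is the minus strand for all 4. Capitals mark matches, on either strand, to 7 motifs. The letters TATAAA stand for the box bound by the TATA-binding protein. The letters CCAAT stand for the box bound by the factor NF-Y. The core of the cAMP response element was searched as TGACG, and the whole element as the palindrome of 2 overlapping cores, TGACGTCA. The E-box was searched as CACGTG. The site of interferon-activated STAT factors, GAS, was searched as TTCNNNGAA, and the interferon-stimulated response element, ISRE, by its usual core.
Cartpt, chr13:99900634-99900933: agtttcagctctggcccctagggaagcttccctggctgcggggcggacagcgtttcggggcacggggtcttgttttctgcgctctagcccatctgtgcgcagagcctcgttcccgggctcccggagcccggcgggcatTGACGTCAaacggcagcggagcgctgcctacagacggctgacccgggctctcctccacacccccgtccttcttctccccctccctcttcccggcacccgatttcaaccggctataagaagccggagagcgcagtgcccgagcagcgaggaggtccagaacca
Uts2b, chr16:27370190-27370489: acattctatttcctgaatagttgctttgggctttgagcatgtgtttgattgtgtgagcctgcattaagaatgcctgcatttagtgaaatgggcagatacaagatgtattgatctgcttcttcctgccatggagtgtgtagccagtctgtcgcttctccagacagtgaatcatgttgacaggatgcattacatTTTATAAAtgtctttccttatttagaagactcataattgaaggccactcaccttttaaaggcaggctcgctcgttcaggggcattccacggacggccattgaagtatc
C1qc, chr4:136892865-136893164: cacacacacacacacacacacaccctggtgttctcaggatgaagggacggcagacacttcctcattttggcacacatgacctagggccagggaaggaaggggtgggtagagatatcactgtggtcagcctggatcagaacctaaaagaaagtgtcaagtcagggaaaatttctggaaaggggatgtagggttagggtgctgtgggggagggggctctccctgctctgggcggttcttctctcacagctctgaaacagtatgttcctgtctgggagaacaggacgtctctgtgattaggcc
C1qb, chr4:136886151-136886450: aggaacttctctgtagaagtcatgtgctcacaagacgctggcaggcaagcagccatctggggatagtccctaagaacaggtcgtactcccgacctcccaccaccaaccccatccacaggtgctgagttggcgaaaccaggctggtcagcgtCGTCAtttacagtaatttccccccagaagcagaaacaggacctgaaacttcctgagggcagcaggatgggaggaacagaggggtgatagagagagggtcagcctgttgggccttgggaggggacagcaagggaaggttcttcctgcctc
In the Cartpt window the capitals are the whole cAMP response element, TGACGTCA, at base 139 of the window, and its 2 overlapping cores. The whole element was found in 588 of 32851 RefSeq mouse promoter windows of this length (1.79%), and the core TGACG in 20.8%. The Uts2b window holds TATAAA, overlapped by the same letters read from the other strand. TATAAA occurs in 13.6% of windows. C1qb has a core on the other strand, and the C1qc window has no match to any of the 7 motifs. None of the 4 windows matched GAS, found in 8.3% of all windows, or the ISRE core, found in 3.44%, nor CCAAT (37.4%) or CACGTG (7.15%). These are matches of letters and were not tested as binding sites.

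In RU521 injured ganglia, 1774 genes passed an adjusted p of 0.05, of which 944 were higher and 830 lower than in WT injured ganglia (edgeR quasi-likelihood test over all 15 ganglion libraries, Benjamini-Hochberg adjustment). That is 9.58% of the genes tested, 5.1% higher and 4.48% lower, and the median log2 fold change of all tested genes was -0.03. Below, a called gene is one that passed this edgeR test with all 6 libraries, unless another tool or set of libraries is named. Each list count below is to be read against these shares, 5.1% higher and 4.48% lower over all tested genes. The lists were chosen with earlier results of these data known, so their counts are descriptions. Several lists hold genes also named for their change, among them Cartpt, Uts2b, Kcnd3, Scn11a, Cebpd, Hes1 and C1qc. Without RU521 replicate 1 the shares are 1.24% higher and 2.32% lower. The genes that rose include neuropeptide genes and sodium and potassium channels of sensory neurons, and those that fell include Cebpd, C1qc, Hes1 and myelin genes. The 3 libraries of each group did not overlap for 1725 of the 1774 called genes. These genes were picked by a test on the same libraries, so that count adds no evidence. The same holds for each called gene below, and the largest changes were named only where the groups did not overlap. The share without overlap over all tested genes was not counted. Without RU521 replicate 1, 691 of 19410 tested genes passed (3.56%), 240 higher (1.24%) and 451 lower (2.32%). Of the calls made with all 6 libraries, 626 were also made without replicate 1, with the same sign in all 626: 237 higher and 389 lower. They are 35.3% of the first set and 90.6% of the second. Among the 944 genes that rose, replicate 1 was the highest RU521 injured library for 844, and replicate 2 the lowest for 845. Among the 830 that fell, replicate 1 was the lowest for 405 and the highest for 231. The number of calls with all 6 libraries also fell to 828 without RU521 replicate 3, to 1117 without WT injured replicate 1, to 476 without WT injured replicate 2 and to 591 without WT injured replicate 3, and it was 2725 without RU521 replicate 2.

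**Figure D1:**
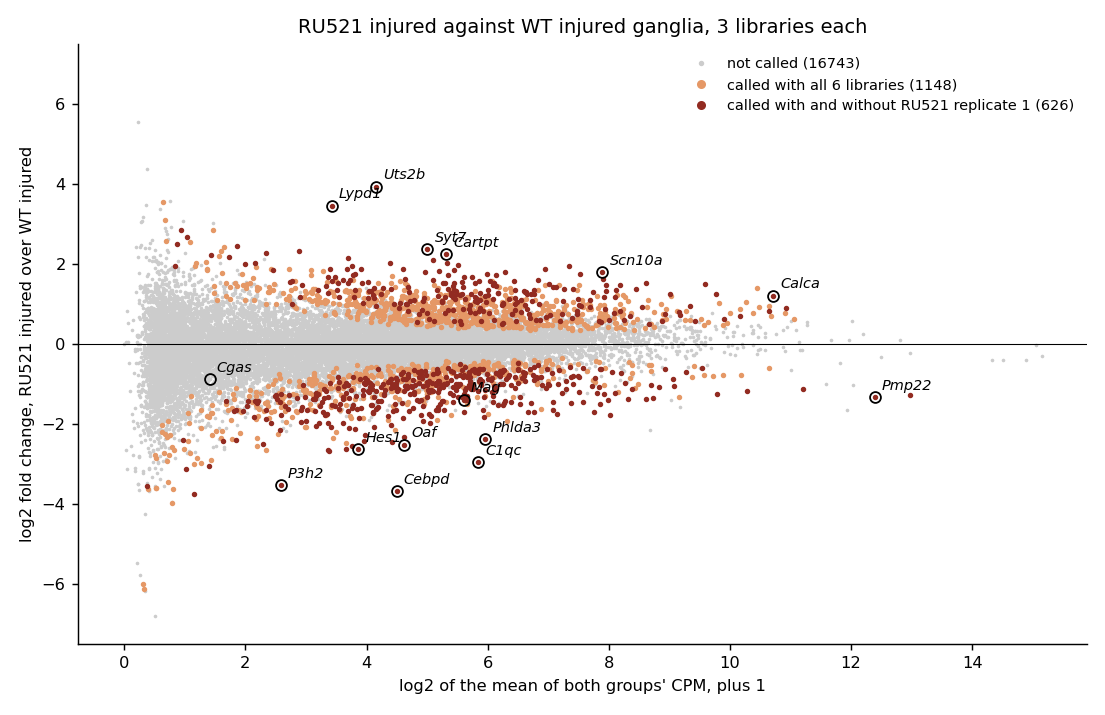
Log2 fold change of each tested gene (vertical axis, RU521 injured over WT injured ganglia) against the log2 of the mean of both groups' CPM plus 1 (horizontal axis). Dark points are the 626 genes called with and without RU521 replicate 1, orange points those called only with all 6 libraries, and grey points genes not called. Uts2b, Lypd1 and Cartpt stand out above, and Cebpd, P3h2 and C1qc below.

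The target of the compound was weakly expressed. Cgas (chr9:78430526-78443237, minus strand, GRCm38) had 1.36, 1.76 and 0.374 CPM in RU521 injured libraries, against 1.89, 2.75 and 1.80 CPM in WT injured libraries. The groups did not overlap, but the difference did not pass the test (log2 fold change -0.88 ± 0.47, adjusted p = 0.267, where ± gives the SE here and below). An inhibitor acts on the enzyme, so this level does not check the compound. Sting1, which encodes the receptor of cGAMP, had 9.25, 12.3 and 9.49 CPM in RU521 injured libraries, against 14.3, 16.7 and 11.5 CPM in WT injured libraries (log2 fold change -0.45 ± 0.20, adjusted p = 0.157). Tbk1, the kinase, had 57.9, 70.2 and 61.4 CPM in RU521 injured libraries, against 65.1, 56.7 and 63.5 CPM in WT injured libraries, and its groups overlapped. Of the 9 tested genes of the cGAS-STING pathway none was called by edgeR, 1 had an unadjusted p below 0.05, none was called by DESeq2 and 3 were lower by limma-voom. The median of the 9 was -0.37, and -0.14 without RU521 replicate 1. Trex1, the DNase that removes cytosolic DNA, had no count in any of the 6 libraries and was not tested, where 3 counts would have read 0.165 to 0.193 CPM.

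Of 30 tested type I interferon-stimulated genes, 1 was called, while 9.58% of all tested genes were called. Ifi27, a mitochondrial interferon-induced protein, was higher, with 303, 247 and 279 CPM in RU521 injured libraries, against 189.7, 192 and 188 CPM in WT injured libraries (log2 fold change 0.54 ± 0.11, adjusted p = 0.00767). It was also called without RU521 replicate 1 (adjusted p = 0.039). The median of the list was -0.05, close to that of all tested genes. Among members not called, the antiviral Rsad2 had 30.7, 65.7 and 43.9 CPM in RU521 injured libraries, against 61.2, 99.1 and 90.2 CPM in WT injured libraries. In that gene the libraries of both groups overlapped. Among 26 interferon gamma response genes, 3 were lower and none higher, against 4.48% lower and 5.1% higher over all genes. In this list 8 genes had an unadjusted p below 0.05 by edgeR. DESeq2, and edgeR with no low-count filter, each called 6 lower, limma-voom 10, and edgeR fitted on the 6 libraries alone 3. Gbp9, a guanylate-binding protein, had 4.92, 6.17 and 5.55 CPM in RU521 injured libraries, against 15.3, 10.9 and 10.4 CPM in WT injured libraries, and the groups did not overlap (log2 fold change -1.14 ± 0.22, adjusted p = 0.00589). Tgtp1, an interferon-induced GTPase, had 1.19, 1.32 and 1.06 CPM in RU521 injured libraries, against 4.02, 3.30 and 4.12 CPM in WT injured libraries. Serping1, the C1 inhibitor, had 198, 163 and 183 CPM in RU521 injured libraries, against 269.7, 286 and 288 CPM in WT injured libraries. All 3 were also called without RU521 replicate 1 (adjusted p between 0.0292 and 0.0404). The Serping1 call was lost without RU521 replicate 3 or WT injured replicate 2 or 3 (adjusted p = 0.0684 to 0.0797). The number of interferon gamma response genes called lower was 7 without RU521 replicate 2. The median of the interferon gamma list was -0.45, and -0.27 without RU521 replicate 1.

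Of 7 genes of MHC class II presentation, 2 were lower, both encoding the DM molecule that loads peptides. H2-DMb1 had 12.6, 14.03 and 18.97 CPM in RU521 injured libraries, against 43.2, 40.3 and 39.9 CPM in WT injured libraries. H2-DMa had 28.99, 34.8 and 30.9 CPM in RU521 injured libraries, against 62, 52.7 and 51.2 CPM in WT injured libraries, and neither gene overlapped between groups. Both were also called without RU521 replicate 1 (adjusted p = 0.0324 and 0.0447). The chain genes that present peptides were not called by edgeR. Of the 7 genes, DESeq2 called 2 lower, edgeR fitted on the 6 libraries alone called 4, and limma-voom, and edgeR with no low-count filter, each called all 7. H2-Aa had 36.7, 66.9 and 48.7 CPM in RU521 injured libraries, against 124, 79.4 and 88.1 CPM in WT injured libraries. The groups did not overlap for that gene, with RU521 replicate 1 the lowest (adjusted p = 0.17). None of 12 MHC class I genes was called by edgeR or DESeq2, and 2 had an unadjusted p below 0.05. Those with the highest level were B2m, the shared light chain, with 387, 616 and 528 CPM in RU521 injured libraries, against 745, 749 and 772 CPM in WT injured libraries, and H2-D1, a heavy chain, with 536, 604 and 631 CPM in RU521 injured libraries, against 609.8, 566 and 576 CPM in WT injured libraries. The B2m groups did not overlap (adjusted p = 0.104), and limma-voom called it. The H2-D1 groups overlapped.

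Of 23 tested neuropeptide and peptide hormone genes, 10 were higher and 1 lower, against 5.1% higher and 4.48% lower over all genes, and without RU521 replicate 1, 8 were higher and none lower. Cartpt (chr13:99898489-99901091, minus strand, GRCm38), the precursor of the CART peptides, had 60.9, 67.5 and 63.3 CPM in RU521 injured libraries, against 16.9, 10.6 and 13.2 CPM in WT injured libraries. The 3 RU521 injured libraries were close to each other and far above the WT injured range, and WT sham libraries had 31.6, 22.5 and 30.7 CPM. Its log2 fold change was 2.24 ± 0.23 (adjusted p = 0.000136), and 2.27 without RU521 replicate 1 (adjusted p = 0.00111). Uts2b (chr16:27353322-27370239, minus strand, GRCm38), the precursor of the urotensin II-related peptide, had 18.7, 47.1 and 29.1 CPM in RU521 injured libraries, against 3.47, 0.880 and 1.87 CPM in WT injured libraries. It had the largest increase of the genes that met the naming rule (log2 fold change 3.93 ± 0.52, adjusted p = 0.000912), and WT sham libraries, at 0.782, 0.497 and 1.01 CPM, were as low as the WT injured ones or lower. Here RU521 replicate 1 was the lowest of its group, and the log2 fold change without it was 4.20.

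Calca, which encodes CGRP-alpha, had 2511, 2184 and 2346 CPM in RU521 injured libraries, against 1255, 849 and 949 CPM in WT injured libraries (log2 fold change 1.21 ± 0.15, adjusted p = 0.00055). Tac1, the precursor of substance P, had 339, 217 and 293 CPM in RU521 injured libraries, against 113, 65.5 and 74.9 CPM in WT injured libraries (log2 fold change 1.74 ± 0.26, adjusted p = 0.00176). In both genes the RU521 injured libraries lay above every WT injured library, and near the WT sham levels of 2056, 1651 and 1926 CPM for Calca and 275, 166 and 265 CPM for Tac1. Calcb, Nmb, Sst and Nppb, which encode CGRP-beta, neuromedin B, somatostatin and the itch peptide BNP, also rose, by 1.47, 1.47, 1.87 and 1.17 on the log2 scale, and all of them were called without RU521 replicate 1 too. The granins Scg2 and Chga rose with all 6 libraries, and their adjusted p without RU521 replicate 1 was 0.0553 and 0.154. Gal, the precursor of galanin and an injury-induced peptide, moved the other way, with 112, 257 and 148 CPM in RU521 injured libraries, against 262, 483 and 440.2 CPM in WT injured libraries (log2 fold change -1.20 ± 0.28, adjusted p = 0.0148), and 22.6, 14.3 and 18.1 CPM in WT sham libraries. Its call was lost without RU521 replicate 1 or 3 or WT injured replicate 2 or 3 (adjusted p = 0.0662 to 0.0859). Other injury-induced peptides did not pass: Npy had 16.8, 60.3 and 31.8 CPM in RU521 injured libraries, against 36.2, 103 and 78.7 CPM in WT injured libraries, and Nts, the precursor of neurotensin, had 69.2, 144 and 105 CPM in RU521 injured libraries, against 82.04, 122 and 111 CPM in WT injured libraries. Leaving out 1 library at a time, 6 to 12 of the 23 genes were higher, with the fewest without WT injured replicate 2 or WT injured replicate 3.

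**Figure D2:**
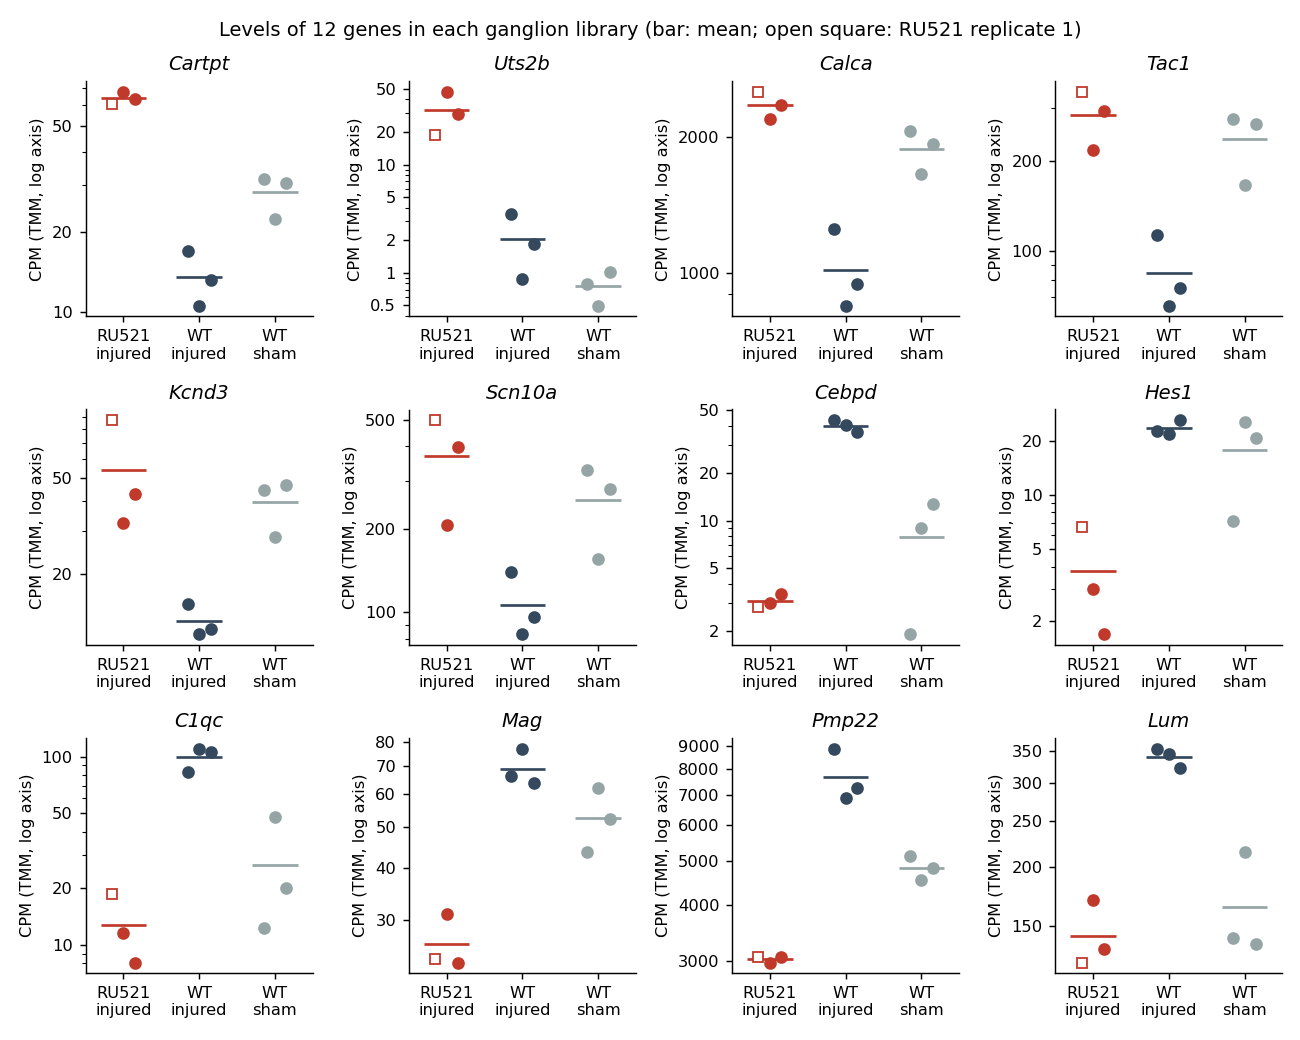
CPM (log axis) of 12 genes in each RU521 injured, WT injured and WT sham library. Points are libraries, bars are group means, and the open square is RU521 replicate 1. In Cartpt, Uts2b, Calca, Tac1, Kcnd3 and Scn10a all 3 RU521 injured libraries lie above all 3 WT injured ones, and in the other 6 genes all lie below. The rule for the largest changes required such separation of Cartpt, Uts2b, Kcnd3, Cebpd, Hes1 and C1qc.

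Of 21 voltage-gated channel genes of sensory neurons, 11 were higher and none lower with RU521, and 5 were higher without RU521 replicate 1. Over all genes, 5.1% were higher with all 6 libraries and 1.24% without RU521 replicate 1. Their median log2 fold change was 0.86, and 0.59 without replicate 1. The sodium channels of nociceptors rose together. Scn10a (Nav1.8) had 497, 208 and 396 CPM in RU521 injured libraries, against 140.1, 82.98 and 96.03 CPM in WT injured libraries (log2 fold change 1.79 ± 0.33, adjusted p = 0.0052). Scn11a (Nav1.9) had 357, 173 and 237 CPM in RU521 injured libraries, against 92.02, 44.7 and 63.7 CPM in WT injured libraries (log2 fold change 1.94 ± 0.36, adjusted p = 0.00548). Scn9a (Nav1.7) had 273, 165 and 217 CPM in RU521 injured libraries, against 98.7, 77.2 and 78.3 CPM in WT injured libraries (log2 fold change 1.37 ± 0.23, adjusted p = 0.00375). In all 3 the groups did not overlap, RU521 replicate 1 was the highest library and RU521 replicate 2 the lowest of its group. Without replicate 1 the log2 fold changes were 1.51, 1.62 and 1.18, with adjusted p of 0.0223, 0.0249 and 0.0166. Kcnd3, the A-type potassium channel Kv4.3, had 87.3, 32.6 and 42.9 CPM in RU521 injured libraries, against 14.98, 11.2 and 11.8 CPM in WT injured libraries (log2 fold change 2.10 ± 0.30, adjusted p = 0.0014), and it was called without replicate 1 (adjusted p = 0.0037). Cacna1b, the N-type calcium channel, rose by 1.41, but its adjusted p was 0.0553 without replicate 1. Kcna1 (Kv1.1) had 85.8, 70.7 and 102 CPM in RU521 injured libraries, against 80.3, 90.2 and 93.8 CPM in WT injured libraries, with overlapping groups. The count of channels higher was between 4, without WT injured replicate 2, and 16, without RU521 replicate 2, and it was 6 without WT injured replicate 3.

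Of the 21 sensory neuron markers, 8 were higher and none lower with all 6 libraries, but only Th and Piezo2 were called without RU521 replicate 1. Th, the tyrosine hydroxylase of low-threshold C fibres, had 255, 131 and 190.2 CPM in RU521 injured libraries, against 71.7, 39.98 and 44.9 CPM in WT injured libraries (log2 fold change 1.88 ± 0.35, adjusted p = 0.00572). Piezo2, the touch channel, had 301, 121 and 188 CPM in RU521 injured libraries, against 77.5, 78.4 and 71.5 CPM in WT injured libraries (log2 fold change 1.42 ± 0.27, adjusted p = 0.0063). Trpv1, the heat and capsaicin channel, had 97.3, 61.97 and 95.9 CPM in RU521 injured libraries, against 42.9, 37.1 and 33.2 CPM in WT injured libraries, and its call was lost without RU521 replicate 1 or 3 or WT injured replicate 2 or 3 (adjusted p = 0.0693 to 0.0853). Isl1, a transcription factor of sensory neurons, had 128, 99.3 and 107 CPM in RU521 injured libraries, against 71.6, 61.7 and 64.1 CPM in WT injured libraries, and its call was lost without RU521 replicate 1 or WT injured replicate 2 or 3 (adjusted p = 0.0695 to 0.0822). Nefh, the heavy neurofilament, had 699, 217 and 362 CPM in RU521 injured libraries, against 189.9, 183 and 197 CPM in WT injured libraries (log2 fold change 1.16 ± 0.29, adjusted p = 0.0206), with an adjusted p of 0.116 without RU521 replicate 1. Tubb3 and Nefl did not pass by edgeR. Tubb3, the neuronal tubulin, had 1929.6, 1165 and 1829.9 CPM in RU521 injured libraries, against 1069, 1295 and 1205 CPM in WT injured libraries, and Nefl, the light neurofilament, had 3499.8, 2112 and 2978 CPM in RU521 injured libraries, against 2100.2, 2047 and 2060.0 CPM in WT injured libraries. RU521 replicate 1 was the highest of the 6 libraries for Tubb3 and Nefl. The number of markers called higher was 2 without WT injured replicate 2 or WT injured replicate 3. In whole ganglia, a larger share of neurons and more RNA per neuron cannot be told apart. The summed neuron markers of RU521 replicate 2 lay within the WT injured range, and Nefl and Tubb3 made 2112 and 1165 of its 6280.2 CPM. The part of the marker sums in the neuronal results was not tested.

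Lypd1, a protein that binds nicotinic acetylcholine receptors, had 27.7, 7.99 and 17.9 CPM in RU521 injured libraries, against 1.04, 1.26 and 2.57 CPM in WT injured libraries (log2 fold change 3.46 ± 0.60, adjusted p = 0.00378). Chrna3 and Chrna4 encode subunits of such receptors: Chrna3 had 12.2, 17.4 and 12.9 CPM in RU521 injured libraries, against 5.36, 3.13 and 4.89 CPM in WT injured libraries, and Chrna4 had 6.94, 3.77 and 6.05 CPM in RU521 injured libraries, against 2.13, 0.880 and 1.09 CPM in WT injured libraries. The RU521 injured libraries lay above the WT injured ones in all 3 genes. The naming rule required this, though for Chrna3 only of RU521 replicates 2 and 3. Without replicate 1 the log2 fold changes were 3.00 for Lypd1, 1.77 for Chrna3 and 1.84 for Chrna4, with adjusted p of 0.015, 0.00664 and 0.0371. The Chrna4 call was lost without WT injured replicate 2 or 3 (adjusted p = 0.0518 to 0.0583). Syt7, a calcium sensor of vesicle release, had 87.03, 27.2 and 42.1 CPM in RU521 injured libraries, against 14.1, 7.64 and 8.49 CPM in WT injured libraries (log2 fold change 2.37 ± 0.34, adjusted p = 0.00139). Pou4f2, a POU transcription factor, had 17.4, 7.30 and 7.36 CPM in RU521 injured libraries, against 2.92, 1.43 and 2.06 CPM in WT injured libraries. Nptxr, the neuronal pentraxin receptor, had 108, 38.9 and 67.5 CPM in RU521 injured libraries, against 18.3, 18.5 and 17.6 CPM in WT injured libraries. Trnp1, a nuclear protein studied in neural progenitors, had 109, 25.4 and 54.3 CPM in RU521 injured libraries, against 18.9, 10.4 and 17.4 CPM in WT injured libraries, with RU521 replicate 1 far above the other RU521 injured libraries. Wipf3, a partner of WASP proteins, and Ajm1, a component of apical junctions, rose by 2.03 and 2.27 on the log2 scale. Each gene of this paragraph except Chrna4 was called in all 13 alternatives run.

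The largest decrease among genes that met the naming rule was that of Cebpd (chr16:15887286-15891031, plus strand, GRCm38), a C/EBP transcription factor of the acute-phase and inflammatory response. It had 2.85, 3.02 and 3.43 CPM in RU521 injured libraries, against 43.3, 40.2 and 36.7 CPM in WT injured libraries. The RU521 injured libraries differed by less than 1 CPM among themselves, and WT sham libraries had 1.91, 9.01 and 12.7 CPM. Ptpn2 KO injured libraries had 7.75, 32.0 and 37.0 CPM of Cebpd, and Ptpn2 KO sham libraries 16.5, 6.44 and 5.53 CPM. The log2 fold change was -3.69 ± 0.64 (adjusted p = 0.00381), and -3.63 without RU521 replicate 1 (adjusted p = 0.02). Over the alternatives run it lay between -3.78 and -3.54. With the 6 libraries fitted alone, the SE for Cebpd was 0.18. The other 5 C/EBP genes were not called by edgeR, while DESeq2 and limma-voom each called 2 of the 6 genes lower. Cebpb, its close relative, had 0.356, 0.189 and 0.562 CPM in RU521 injured libraries, against 0.426, 0.825 and 0.257 CPM in WT injured libraries, with overlapping groups. As 3 counts read 0.165 to 0.193 CPM in these libraries, the Cebpb levels rest on few reads and cannot show whether it changed. Cebpe, which marks maturing neutrophils, had 7.29, 15.8 and 5.99 CPM in RU521 injured libraries, against 28.6, 22.1 and 21.5 CPM in WT injured libraries and did not overlap, with an adjusted p of 0.0978.

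Hes1 (chr16:30064384-30067796, plus strand, GRCm38), a transcriptional repressor and the classical target of Notch signalling, had 6.64, 3.02 and 1.69 CPM in RU521 injured libraries, against 22.5, 21.8 and 25.9 CPM in WT injured libraries (log2 fold change -2.62 ± 0.57, adjusted p = 0.0108). The call was kept without RU521 replicate 1 (log2 fold change -3.31, adjusted p = 0.0119) and lost without RU521 replicate 3 (adjusted p = 0.0503). Of 15 tested Notch genes edgeR called Hes1 alone, DESeq2 called 2 higher and 1 lower, and limma-voom 2 higher and 3 lower. Without RU521 replicate 2, edgeR called 2 higher and 1 lower. The related targets Hes5 and Hey1 had levels that were not lower: Hes5 had 7.41, 5.79 and 6.55 CPM in RU521 injured libraries, against 3.96, 2.69 and 3.79 CPM in WT injured libraries, and Hey1 had 21.4, 20.1 and 21.8 CPM in RU521 injured libraries, against 16.3, 21.5 and 20.3 CPM in WT injured libraries. The Hes1 level was also low in 1 of the WT sham libraries, which had 7.13, 25.5 and 20.7 CPM. Single libraries were low in the knockout groups too. Hes1 had 6.62, 16.5 and 21.1 CPM in Ptpn2 KO injured and 18.1, 14.5 and 5.88 CPM in Ptpn2 KO sham libraries.

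P3h2, a prolyl 3-hydroxylase that modifies collagen, had 1.30, 0.503 and 0.562 CPM in RU521 injured libraries, against 8.83, 11.3 and 7.53 CPM in WT injured libraries (log2 fold change -3.53 ± 0.62, adjusted p = 0.00386). Fmod, fibromodulin, had 2.85, 2.33 and 2.43 CPM in RU521 injured libraries, against 15.8, 16 and 16.8 CPM in WT injured libraries. Col9a2, a chain of collagen IX, had 1.78, 0.881 and 0.811 CPM in RU521 injured libraries, against 6.27, 6.65 and 7.01 CPM in WT injured libraries. All 3 were called in all 13 alternatives. In Ptpn2 KO injured libraries, P3h2 had 1.56, 5.01 and 3.23 CPM, Fmod 4.06, 3.27 and 4.02 CPM, and Col9a2 2.12, 1.54 and 3.23 CPM. These levels also lay below every WT injured library. Phlda3, a p53 target that restrains Akt, had 26.1, 17.2 and 15.5 CPM in RU521 injured libraries, against 105, 111 and 91.7 CPM in WT injured libraries (log2 fold change -2.38 ± 0.39, adjusted p = 0.00304). Oaf, the mouse homologue of the fly gene out at first, had 8.06, 6.67 and 6.30 CPM in RU521 injured libraries, against 43.7, 38.2 and 38.7 CPM in WT injured libraries. Rab5if, a Rab5-interacting factor, had 4.15, 4.66 and 2.06 CPM in RU521 injured libraries, against 24.4, 20.4 and 19.6 CPM in WT injured libraries, and Ccdc3, a secreted coiled-coil protein, had 4.33, 1.95 and 1.37 CPM in RU521 injured libraries, against 18.03, 15.9 and 14.1 CPM in WT injured libraries. The groups were clear of each other in all 4 genes, as the naming rule required for Oaf, Rab5if and Ccdc3. Levels also varied among libraries without RU521. WT sham libraries had 28.6, 81.7 and 60.5 CPM of Phlda3 and 5.26, 28.8 and 22.8 CPM of Oaf. They had 2.96, 9.94 and 12.1 CPM of Rab5if and 1.43, 9.63 and 3.15 CPM of Ccdc3. Cox11, a copper chaperone of cytochrome oxidase, fell by 2.66 on the log2 scale, Bloc1s4, a subunit of the BLOC-1 complex, by 2.63, and Nnmt, nicotinamide N-methyltransferase, by 2.55. Ptpn2 KO sham libraries had 4.42, 2.21 and 0.484 CPM of Cox11 and 18.7, 12.6 and 2.49 CPM of Bloc1s4, so 1 of them was low without RU521. The Cox11 call was lost without RU521 replicate 1 or 3 or WT injured replicate 2 or 3 (adjusted p = 0.0532 to 0.0794), the Bloc1s4 call without RU521 replicate 3 or WT injured replicate 3 (adjusted p = 0.0561 to 0.0701) and the Nnmt call without RU521 replicate 1 or 3 or WT injured replicate 2 or 3 (adjusted p = 0.0613 to 0.0905). The next genes fall outside the naming rule and were chosen after their values were seen. Scube1, a secreted and membrane-bound EGF-domain protein, had 5.04, 6.23 and 3.81 CPM in RU521 injured libraries, against 23.4, 25.6 and 24.1 CPM in WT injured libraries, and Plk5, an atypical polo-like kinase, had 4.98, 3.96 and 4.74 CPM in RU521 injured libraries, against 22.8, 17.98 and 17.6 CPM in WT injured libraries. In Ptpn2 KO injured libraries Plk5 had 5.06, 4.87 and 4.75 CPM, near the RU521 injured level. Scube1 there had 21.9, 24.6 and 25.5 CPM, near the WT injured level. Both had the adjusted p of Cartpt, 0.000136. A smaller one was reached by Fa2h alone, the fatty acid hydroxylase of myelin lipids, with a log2 fold change of -1.52 and an adjusted p of 7.31e-05. Rac1, a small GTPase of the actin cytoskeleton, had 212, 69.6 and 72.3 CPM in RU521 injured libraries, against 368, 422 and 414 CPM in WT injured libraries (log2 fold change -1.77 ± 0.41, adjusted p = 0.0154), with RU521 replicate 1 well above the other RU521 injured libraries. Levels of Rac1 were 160, 293 and 335 CPM in WT sham and 324, 242 and 121 CPM in Ptpn2 KO sham libraries.

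C1qc (chr4:136889804-136893065, minus strand, GRCm38) encodes the C chain of C1q, the recognition protein of the classical complement pathway, which macrophages and microglia make. It had 18.7, 11.6 and 8.05 CPM in RU521 injured libraries, against 82.8, 110.1 and 106 CPM in WT injured libraries, and WT sham libraries had 12.3, 47.7 and 20.1 CPM. Its log2 fold change was -2.96 ± 0.44 (adjusted p = 0.00176), and -3.34 without RU521 replicate 1 (adjusted p = 0.00423). The A and B chains join with the C chain in the same protein. C1qa had 36.2, 59.6 and 46.7 CPM in RU521 injured libraries, against 86.7, 124 and 109 CPM in WT injured libraries (log2 fold change -1.17 ± 0.41, adjusted p = 0.0858), and C1qb had 40.7, 73.6 and 51.9 CPM in RU521 injured libraries, against 96.96, 137 and 121 CPM in WT injured libraries (log2 fold change -1.10 ± 0.37, adjusted p = 0.0718). Neither was called, although the RU521 injured libraries lay below the WT injured ones in both. The ratio of C1qc to C1qa, taken from CPM and not corrected for length, was 0.516, 0.195 and 0.172 in RU521 injured libraries, against 0.956, 0.885 and 0.966 in WT injured libraries. The ratio of C1qb to C1qa was 1.12, 1.23 and 1.11 in RU521 injured libraries, against 1.12, 1.10 and 1.11 in WT injured libraries. These ratios are given as a description. The C1qc to C1qa ratio was not uniform elsewhere: it was 0.698, 0.545 and 0.877 in WT sham, 0.696, 1.02 and 0.889 in Ptpn2 KO injured and 0.776, 0.823 and 0.320 in Ptpn2 KO sham libraries. The 3 genes are neighbours on chromosome 4.

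**Figure D3:**
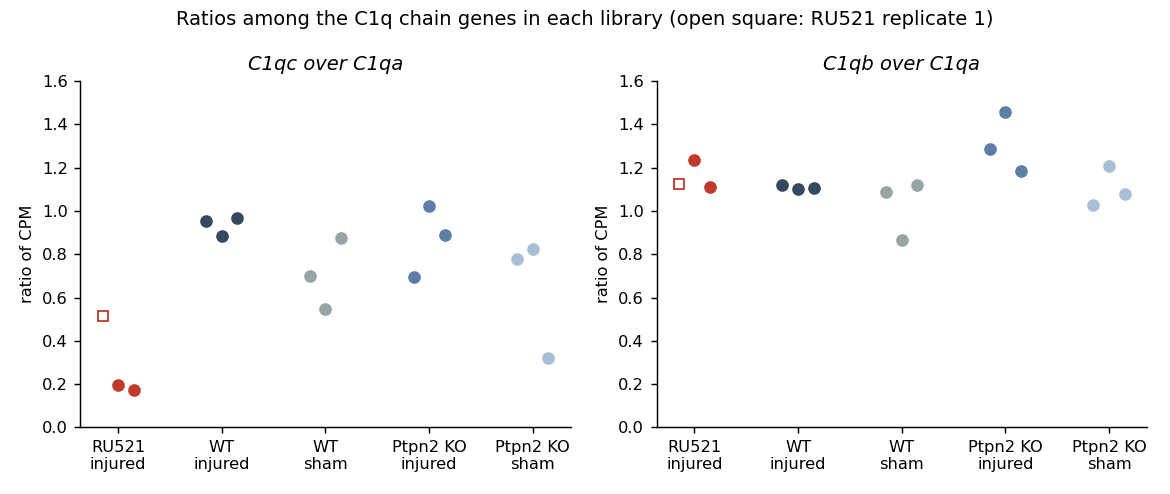
Ratio of C1qc to C1qa (left) and of C1qb to C1qa (right), from CPM, in each library of the 5 ganglion groups. Points are libraries, and the open square is RU521 replicate 1. In the left panel the 3 RU521 injured libraries (0.172 to 0.516) lie below the WT injured ones (0.885 to 0.966), and in the right panel these 2 groups overlap.

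Of 19 complement genes, 4 were lower and 1 higher, and without RU521 replicate 1, 2 were lower and none higher. DESeq2, and edgeR fitted on the 6 libraries alone, each called 8 lower and 1 higher. With no low-count filter edgeR called 9 lower and 1 higher, and limma-voom called 12 lower and 1 higher. Cd55, which protects cells from complement and is carried by sensory neurons, had 491, 363 and 409.7 CPM in RU521 injured libraries, against 260.1, 121 and 165 CPM in WT injured libraries (log2 fold change 1.21 ± 0.27, adjusted p = 0.012), and its call was lost without RU521 replicate 1 or WT injured replicate 2 or 3 (adjusted p = 0.0533 to 0.07). C1s1, a protease of the C1 complex, had 9.96, 12.5 and 13.2 CPM in RU521 injured libraries, against 26.3, 25.3 and 22.3 CPM in WT injured libraries, and its call was lost without RU521 replicate 1 or 3 or WT injured replicate 1 or 2 or 3 (adjusted p = 0.0665 to 0.119). The number of complement genes called lower was 1 without RU521 replicate 3 or WT injured replicate 2 or WT injured replicate 3 and 2 without WT injured replicate 1. Of 22 macrophage and microglia markers, 5 were lower with all 6 libraries, and C1qc alone without RU521 replicate 1. DESeq2 called 8 lower, edgeR fitted on the 6 libraries alone 7, edgeR with no low-count filter 13 and limma-voom 15. Cx3cr1, the fractalkine receptor, had 9.13, 23.7 and 13.98 CPM in RU521 injured libraries, against 41.6, 47.2 and 44.8 CPM in WT injured libraries (log2 fold change -1.52 ± 0.34, adjusted p = 0.0137). Mrc1, the mannose receptor of tissue macrophages, had 21.6, 41.1 and 32.6 CPM in RU521 injured libraries, against 56.8, 104 and 78.9 CPM in WT injured libraries. Ms4a7 and Adgre1 (F4/80) fell by 1.58 and 1.37. The Cx3cr1 call was lost without RU521 replicate 1 or 3 or WT injured replicate 2 or 3 (adjusted p = 0.0509 to 0.0606), the Mrc1 call without RU521 replicate 1 or 3 or WT injured replicate 2 or 3 (adjusted p = 0.0563 to 0.0974) and the Ms4a7 call without RU521 replicate 1 or 3 or WT injured replicate 2 or 3 (adjusted p = 0.0559 to 0.0748). Markers shared with monocytes were not called and overlapped: Lyz2, lysozyme, had 859.9, 2705 and 1823 CPM in RU521 injured libraries, against 2235, 1899 and 1999 CPM in WT injured libraries, and Ccr2, the receptor that brings in monocytes, had 29.9, 97.1 and 58.9 CPM in RU521 injured libraries, against 69.2, 60.8 and 58.9 CPM in WT injured libraries. The number of macrophage markers called lower was 1 without RU521 replicate 3 or WT injured replicate 2 or WT injured replicate 3. The summed macrophage list was 1253, 3678 and 2513 CPM in RU521 injured libraries, against 3350.0, 3266 and 3242 CPM in WT injured libraries and 462, 1421 and 551 CPM in WT sham libraries. By this sum RU521 replicate 1 was the lowest of these injured libraries and replicate 2 the highest. Lyz2 alone made 2705 of the 3678 CPM in replicate 2, so the sum mostly follows that gene. All 22 markers had a negative log2 fold change, with a median of -0.84, and -0.61 without RU521 replicate 1.

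Schwann cell and myelin genes were lower than in WT injured libraries without exception. All 12 tested markers were called lower with all 6 libraries, against 4.48% of all genes, and 8 of the 12 were called without RU521 replicate 1. The number was 9 without RU521 replicate 3 or WT injured replicate 3, 8 without WT injured replicate 2, 11 without WT injured replicate 1 and 12 without RU521 replicate 2. Pmp22, a protein of compact peripheral myelin, had 3068, 2974 and 3065 CPM in RU521 injured libraries, against 8881, 6900.1 and 7265 CPM in WT injured libraries (log2 fold change -1.34 ± 0.15, adjusted p = 0.000368). The 3 RU521 injured libraries were nearly equal, and below the WT sham levels of 5132, 4550.1 and 4828 CPM. Mag, the myelin-associated glycoprotein, had 24.2, 31.02 and 23.7 CPM in RU521 injured libraries, against 66.1, 77.1 and 63.9 CPM in WT injured libraries (log2 fold change -1.39 ± 0.15, adjusted p = 0.000235). Mal, a myelin membrane protein, had 255, 303 and 259 CPM in RU521 injured libraries, against 589, 526 and 537 CPM in WT injured libraries. Pmp2, the fatty-acid-binding protein of myelin, had 10.3, 8.93 and 11.1 CPM in RU521 injured libraries, against 45.2, 30.1 and 33.8 CPM in WT injured libraries. For all 4 genes the groups did not overlap and the call held without RU521 replicate 1 (adjusted p from 0.00232 to 0.0171). Mbp, myelin basic protein, had 3727, 5172 and 5215 CPM in RU521 injured libraries, against 11350.0, 11536 and 11418 CPM in WT injured libraries. WT sham libraries had 3253, 8048 and 3872 CPM of Mbp, and Ptpn2 KO injured libraries 5075, 4922 and 6234 CPM. WT injured libraries were thus the highest for Mbp. Ptpn2 KO injured libraries had 3206, 3468 and 4206 CPM of Pmp22, nearer to RU521 injured libraries. Their Mag levels, 52.7, 45.7 and 50.8 CPM, lay between RU521 injured and WT injured libraries. Egr2, the transcription factor that drives myelination, had 0.593, 1.32 and 0.749 CPM in RU521 injured libraries, against 2.44, 2.69 and 2.57 CPM in WT injured libraries, and its call was lost without RU521 replicate 1 or 3 or WT injured replicate 1 or 2 or 3 (adjusted p = 0.0603 to 0.129). The summed list was 9332, 11289 and 11302 CPM in RU521 injured libraries, against 25831, 24468 and 24556 CPM in WT injured libraries and 11602, 17769.6 and 12122 CPM in WT sham libraries. The amount of nerve root or nerve in each sample is not given, and its part in these values was not tested.

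Of 11 fibroblast and pericyte markers, 5 were lower, and 3 without RU521 replicate 1 or any other single library except RU521 replicate 2, where 4 were. Lum, the matrix proteoglycan lumican, had 126, 170.4 and 134 CPM in RU521 injured libraries, against 355, 345 and 323 CPM in WT injured libraries (log2 fold change -1.25 ± 0.17, adjusted p = 0.00128). Dcn, decorin, had 719, 854 and 728 CPM in RU521 injured libraries, against 1712, 1742 and 1713 CPM in WT injured libraries. Pdgfra, the growth factor receptor of fibroblasts, had 7.06, 11.01 and 10.3 CPM in RU521 injured libraries, against 25.03, 24.9 and 20.7 CPM in WT injured libraries. These 3 were called without RU521 replicate 1. Acta2, smooth muscle actin, had 16.1, 9.75 and 13.6 CPM in RU521 injured libraries, against 40.6, 33.7 and 33.96 CPM in WT injured libraries, and its call was lost without RU521 replicate 1 or 2 or 3 or WT injured replicate 1 or 2 or 3 (adjusted p = 0.0803 to 0.107). Of 10 endothelial markers, 3 were lower, 2 of them also without RU521 replicate 1. Cldn5, a tight junction protein, had 44.5, 56.2 and 54.7 CPM in RU521 injured libraries, against 78.99, 96.2 and 84.1 CPM in WT injured libraries. Pecam1, an adhesion molecule, had 15.4, 16.7 and 19.2 CPM in RU521 injured libraries, against 38.7, 37.8 and 38.8 CPM in WT injured libraries, and Plvap, of fenestrated vessels, had 29.3, 19.4 and 11.98 CPM in RU521 injured libraries, against 67.9, 43.9 and 51.5 CPM in WT injured libraries. The Cldn5 call was lost without WT injured replicate 2 (adjusted p = 0.0514), the Pecam1 call without RU521 replicate 1 or WT injured replicate 2 (adjusted p = 0.0507 to 0.0566) and the Plvap call without RU521 replicate 3 or WT injured replicate 1 or 2 or 3 (adjusted p = 0.0561 to 0.108). The number of endothelial markers called lower was 0 without WT injured replicate 2. The summed fibroblast list was 1642, 2127 and 1869 CPM in RU521 injured libraries, against 3734, 3782 and 3718 CPM in WT injured libraries, and the groups were far apart.

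Of 10 satellite glia markers, 1 was lower and none higher, and none was called by edgeR without RU521 replicate 1, where 2 had an unadjusted p below 0.05. DESeq2 called 2 lower with all 6 libraries. The number called lower was 0 without RU521 replicate 3 or WT injured replicate 2 or 3, and 2 without RU521 replicate 2. Fabp7, the fatty-acid-binding protein that marks satellite glia, had 627, 872 and 738 CPM in RU521 injured libraries, against 600.5, 797 and 785 CPM in WT injured libraries, and Apoe had 7026, 8071 and 7078 CPM in RU521 injured libraries, against 6200.0, 7361 and 7057 CPM in WT injured libraries. In both the groups overlapped. Neutrophil genes were not called (0 of 11 by edgeR and DESeq2, and none with an unadjusted p below 0.05): S100a8, a calprotectin subunit, had 1134, 3478 and 2243 CPM in RU521 injured libraries, against 2564, 1875 and 2187 CPM in WT injured libraries, and Ngp, a granule protein, had 669, 2247 and 1404 CPM in RU521 injured libraries, against 1796, 1477 and 1569 CPM in WT injured libraries. RU521 replicate 1 was the lowest injured library and replicate 2 the highest in both, as in the macrophage sum. Of 7 red blood cell genes none was called by edgeR, 3 had an unadjusted p below 0.05 and 1 was lower by DESeq2. Their sum was 3368, 7478 and 5777 CPM in RU521 injured libraries, against 10957, 11124 and 10999 CPM in WT injured libraries, without overlap. Hbb-bs, a beta globin, had 1685, 3585 and 3040.3 CPM in RU521 injured libraries, against 5653, 5586 and 5652 CPM in WT injured libraries, and Hba-a1, an alpha globin, 1298, 2913 and 1959 CPM in RU521 injured libraries, against 4107, 4154 and 4054 CPM in WT injured libraries. The part of these levels in the other results was not tested.

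**Figure D4:**
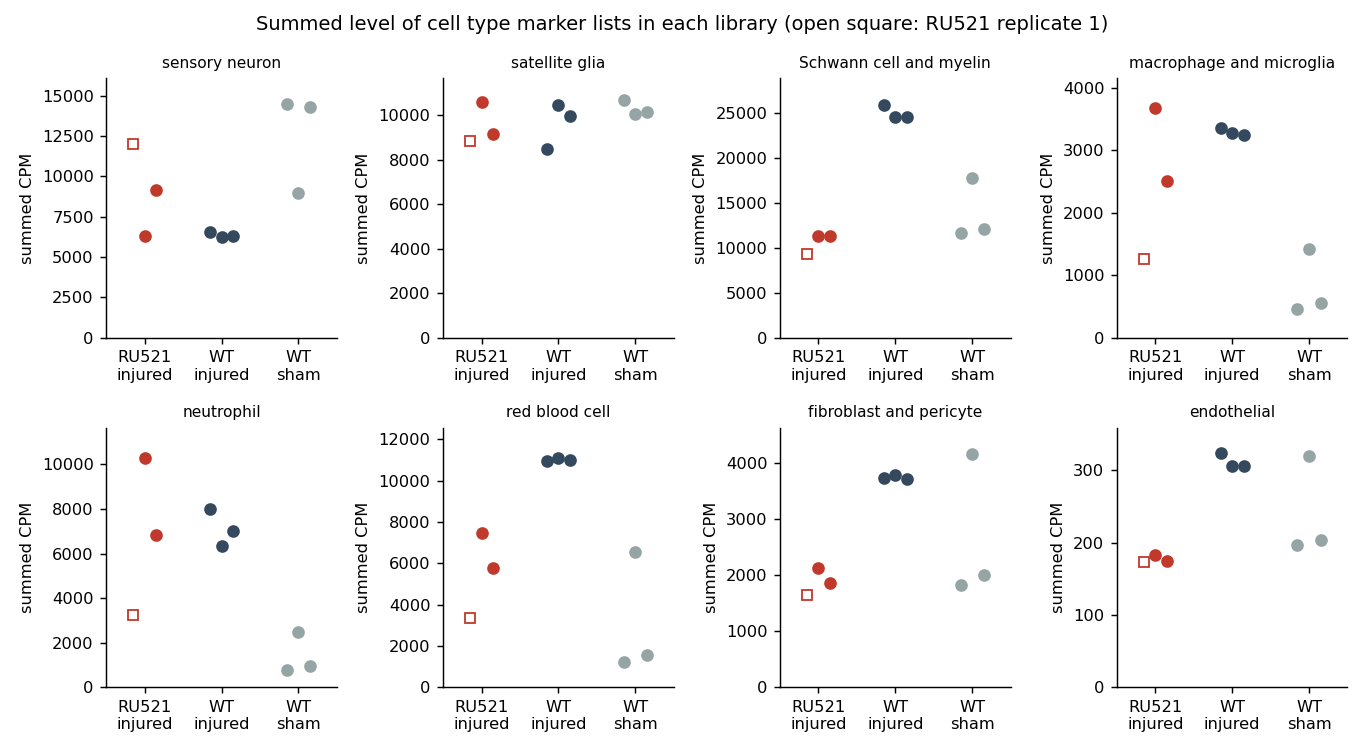
Summed CPM of 8 cell type marker lists in each RU521 injured, WT injured and WT sham library. Points are libraries, and the open square is RU521 replicate 1. The Schwann cell, fibroblast, endothelial and red blood cell sums separate RU521 injured from WT injured libraries, while the neutrophil and satellite glia sums overlap.

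Of 30 tested regeneration-associated genes, 5 were lower and 1 higher, and without RU521 replicate 1, 2 were lower. Sprr1a, given above, fell by 1.37 on the log2 scale (adjusted p = 0.0151), and by 1.04 without RU521 replicate 1 (adjusted p = 0.0439). Its call was lost without WT injured replicate 2 or 3 (adjusted p = 0.0665 to 0.0884). Gadd45a, a stress-induced gene, had 18.2, 24.8 and 13.3 CPM in RU521 injured libraries, against 41.6, 61.8 and 57.7 CPM in WT injured libraries (log2 fold change -1.52 ± 0.30, adjusted p = 0.0073), and 5.69, 14.2 and 10.8 CPM in WT sham libraries. Klf7, a Krüppel-like factor, was higher, with 409.7, 221 and 298 CPM in RU521 injured libraries, against 165, 177 and 189.7 CPM in WT injured libraries, and its call was lost without RU521 replicate 1 or WT injured replicate 1 or 2 (adjusted p = 0.0529 to 0.0912). Atf3, the transcription factor that marks axotomised neurons, had 64.6, 233 and 137 CPM in RU521 injured libraries, against 178, 376 and 320.4 CPM in WT injured libraries, and 7.95, 9.32 and 6.35 CPM in WT sham libraries. It did not pass (adjusted p = 0.074). RU521 replicate 1 was the lowest injured library for Sprr1a, Atf3 and Gal, and RU521 replicate 2 the RU521 injured library closest to the WT injured range. Gap43, the growth cone protein, had 343, 361 and 285 CPM in RU521 injured libraries, against 293, 499 and 436 CPM in WT injured libraries, with overlapping groups. The number called lower was 1 without WT injured replicate 2 or 3, 3 without RU521 replicate 3 and 9 without RU521 replicate 2.

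Of 18 tested immediate early genes, 5 were lower, and 2 without RU521 replicate 1. Nr4a2, an orphan nuclear receptor, had 9.31, 11.3 and 8.80 CPM in RU521 injured libraries, against 21.5, 19.4 and 18.3 CPM in WT injured libraries (log2 fold change -1.01 ± 0.18, adjusted p = 0.00381), and Egr1 had 11.8, 13.2 and 16.1 CPM in RU521 injured libraries, against 20.5, 32.3 and 28.9 CPM in WT injured libraries (log2 fold change -0.99 ± 0.19, adjusted p = 0.00646). Both were called without replicate 1, in contrast to Fos, with 6.82, 13.97 and 10.6 CPM in RU521 injured libraries, against 15.5, 23.3 and 22.1 CPM in WT injured libraries, whose call was lost without RU521 replicate 1 or 3 or WT injured replicate 2 or 3 (adjusted p = 0.0943 to 0.15). The number of immediate early genes called lower was 2 without RU521 replicate 3 or WT injured replicate 2 or WT injured replicate 3. Of 20 genes that respond to glucocorticoids, 5 were lower, and 5 without replicate 1. Sgk1, a kinase of ion transport, had 18.3, 25.2 and 28.7 CPM in RU521 injured libraries, against 46.3, 57.1 and 48.6 CPM in WT injured libraries (log2 fold change -1.07 ± 0.17, adjusted p = 0.00269). Cdkn1a, the cell cycle inhibitor p21 and also a p53 target, had 122, 138 and 129 CPM in RU521 injured libraries, against 197, 248 and 237 CPM in WT injured libraries (log2 fold change -0.81 ± 0.14, adjusted p = 0.00391). Sult1a1, a sulfotransferase, had 34.03, 42.8 and 37.8 CPM in RU521 injured libraries, against 78.99, 78.6 and 76.6 CPM in WT injured libraries. Errfi1, a feedback inhibitor of EGF receptors, fell by 0.72, and its call was lost without RU521 replicate 3 or WT injured replicate 1 or 2 (adjusted p = 0.0538 to 0.0728). Tsc22d3 (GILZ), a classical glucocorticoid target, had 251, 200.1 and 252 CPM in RU521 injured libraries, against 217, 204 and 198 CPM in WT injured libraries, with overlapping groups. The number of glucocorticoid-responsive genes called lower was 3 without RU521 replicate 3 or WT injured replicate 2. Of 13 tested DNA damage and p53 targets 4 were lower, and 2 without replicate 1: Phlda3 and Cdkn1a. Plk2, a polo-like kinase, and Sesn1, a sestrin, fell by 0.59 and 0.46, and the Plk2 call was lost without RU521 replicate 1 or 3 or WT injured replicate 1 or 2 or 3 (adjusted p = 0.0671 to 0.172), the Sesn1 call without RU521 replicate 1 or 3 or WT injured replicate 1 or 2 or 3 (adjusted p = 0.0701 to 0.193). The number of p53 targets called lower was 2 without WT injured replicate 1 or WT injured replicate 2 or WT injured replicate 3 and 7 without RU521 replicate 2.

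Of 22 tested chemokines and cytokines, 4 were lower and none higher, and none was called without RU521 replicate 1, where 6 had an unadjusted p below 0.05; with all 6 libraries DESeq2 called 5 lower. Csf1, the macrophage growth factor that injured sensory neurons make, had 11.03, 30.2 and 19.3 CPM in RU521 injured libraries, against 33.1, 63.4 and 55.3 CPM in WT injured libraries, and 12.6, 6.52 and 10.1 CPM in WT sham libraries. Ccl12, a monocyte chemokine, had 2.13, 3.90 and 3 CPM in RU521 injured libraries, against 7.19, 8.03 and 7.14 CPM in WT injured libraries. Ccl8 had 2.73, 3.15 and 1.81 CPM in RU521 injured libraries, against 9.14, 10.1 and 8.23 CPM in WT injured libraries, and Cx3cl1, fractalkine, had 2.25, 5.79 and 6.62 CPM in RU521 injured libraries, against 11.2, 10.8 and 12.9 CPM in WT injured libraries. The Csf1 call was lost without RU521 replicate 1 or 3 or WT injured replicate 2 or 3 (adjusted p = 0.0625 to 0.0933), the Ccl12 call without RU521 replicate 1 or 3 or WT injured replicate 2 (adjusted p = 0.0505 to 0.0678), the Ccl8 call without RU521 replicate 1 or 2 or 3 or WT injured replicate 1 or 2 or 3 (adjusted p = 0.0525 to 0.162) and the Cx3cl1 call without RU521 replicate 1 or WT injured replicate 1 or 2 or 3 (adjusted p = 0.0711 to 0.113). The number of chemokines and cytokines called lower was 0 without WT injured replicate 2 and 1 without RU521 replicate 3 or WT injured replicate 3 and 2 without WT injured replicate 1. Il1b had 0.593, 6.10 and 5.74 CPM in RU521 injured libraries, against 4.02, 4.95 and 4.82 CPM in WT injured libraries, with RU521 replicate 1 the lowest and the other RU521 injured libraries the highest. None of 15 NF-kB feedback and inflammatory targets was called by edgeR, 4 had an unadjusted p below 0.05, and 1 was lower by DESeq2. Nfkbia, which encodes the inhibitor of NF-kB, had 34.3, 46.2 and 41.6 CPM in RU521 injured libraries, against 46.5, 44.6 and 46.4 CPM in WT injured libraries, and Sod2, a mitochondrial dismutase, had 183, 176 and 186 CPM in RU521 injured libraries, against 168, 193 and 178 CPM in WT injured libraries.

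Of 19 circadian clock genes 4 were lower, and Dbp alone without RU521 replicate 1. Dbp, a clock output factor, had 3.91, 2.77 and 2.75 CPM in RU521 injured libraries, against 12.9, 9.40 and 7.59 CPM in WT injured libraries, and its call was lost without RU521 replicate 3 or WT injured replicate 1 or 2 (adjusted p = 0.0521 to 0.068). Bhlhe40, Nfil3 and Arntl fell by 0.59, 0.93 and 1.02, and the Bhlhe40 call was lost without RU521 replicate 1 or 3 or WT injured replicate 2 or 3 (adjusted p = 0.0813 to 0.165), the Nfil3 call without RU521 replicate 1 or 3 or WT injured replicate 2 or 3 (adjusted p = 0.0977 to 0.197) and the Arntl call without RU521 replicate 1 or 3 or WT injured replicate 1 or 2 or 3 (adjusted p = 0.0741 to 0.176). The number of clock genes called lower was 0 without RU521 replicate 3 or WT injured replicate 2 and 1 without WT injured replicate 3 and 2 without WT injured replicate 1. The labels do not give the time of day of collection. Of 24 JAK-STAT and SOCS genes 1 was lower: Ifnar2, a chain of the type I interferon receptor, had 19.7, 20.3 and 27.6 CPM in RU521 injured libraries, against 29.8, 35.4 and 33.8 CPM in WT injured libraries, and its call was lost without RU521 replicate 1 or 2 or WT injured replicate 1 or 2 or 3 (adjusted p = 0.0609 to 0.172). Metabolic lists held few calls. Ldha, lactate dehydrogenase, rose, with 803, 574 and 783 CPM in RU521 injured libraries, against 483, 396 and 423 CPM in WT injured libraries (log2 fold change 0.73 ± 0.14, adjusted p = 0.00688), and Ndrg1, a hypoxia target that myelinating Schwann cells also express, fell, with 504, 641 and 691 CPM in RU521 injured libraries, against 988, 1138 and 1088 CPM in WT injured libraries. These were the only calls by edgeR among 14 hypoxia and glycolysis genes, and Ldha alone was called without RU521 replicate 1. DESeq2 called 1 higher and 2 lower, and limma-voom 6 higher and 3 lower. The Ndrg1 call was lost without RU521 replicate 1 or WT injured replicate 2 or 3 (adjusted p = 0.0552 to 0.0701). Of 16 cholesterol synthesis genes 1 was lower and 1 higher, and without replicate 1, 1 was lower and none higher. The number called higher was also 0 without RU521 replicate 3 or any single WT injured library, and 2 without RU521 replicate 2. Lss, lanosterol synthase, fell by 0.66 on the log2 scale, was called without replicate 1 (adjusted p = 0.0388), and its call was lost without WT injured replicate 2 (adjusted p = 0.0507). Among 16 chaperone and heat shock genes Manf rose by 0.55, and its call was lost without RU521 replicate 1 or 3 or WT injured replicate 1 or 2 or 3 (adjusted p = 0.0586 to 0.133).

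The remaining lists held no call by edgeR with all 6 libraries. None of 18 integrated stress response genes was called by edgeR or DESeq2, and 5 had an unadjusted p below 0.05. Slc3a2, an amino acid transporter subunit, had 215, 205 and 212 CPM in RU521 injured libraries, against 212, 252 and 221 CPM in WT injured libraries. Asns, asparagine synthetase, had 241, 216 and 224 CPM in RU521 injured libraries, against 159.7, 177 and 176 CPM in WT injured libraries, without overlap (adjusted p = 0.26). None of 16 proliferation genes was called by edgeR or DESeq2, or had an unadjusted p below 0.05: Rrm2, the ribonucleotide reductase subunit of dividing cells, had 30.2, 109.9 and 57.7 CPM in RU521 injured libraries, against 76.1, 79.6 and 75.3 CPM in WT injured libraries, and Mcm6, a replication helicase subunit, had 28.8, 65.9 and 49.99 CPM in RU521 injured libraries, against 52.99, 71.05 and 73.1 CPM in WT injured libraries. RU521 replicate 1 was the lowest injured library and replicate 2 the highest for Rrm2. None of 13 lymphocyte markers was called by edgeR, 2 had an unadjusted p below 0.05 and 1 was lower by DESeq2. The B cell genes Cd79a and Cd79b had 4.21, 21.3 and 17.1 CPM in RU521 injured libraries, against 22.2, 13.6 and 17.9 CPM in WT injured libraries for the first and 7.35, 19.9 and 13.6 CPM in RU521 injured libraries, against 16.7, 15.6 and 15.9 CPM in WT injured libraries for the second. Of 7 adipocyte markers, 3 had an unadjusted p below 0.05 and 1 was higher by DESeq2. Cfd, adipsin, had 4.51, 8.24 and 6.99 CPM in RU521 injured libraries, against 37.2, 14.4 and 22.1 CPM in WT injured libraries, and Fabp4, the fatty-acid-binding protein of fat cells, had 5.51, 9.12 and 9.99 CPM in RU521 injured libraries, against 25.8, 11.5 and 20.3 CPM in WT injured libraries. Of 11 skeletal muscle, bone and cartilage markers, 3 had an unadjusted p below 0.05 and 1 was lower by DESeq2. Acta1, muscle actin, had 30.9, 42.1 and 32.1 CPM in RU521 injured libraries, against 198, 16.4 and 67.8 CPM in WT injured libraries, and Tnnt3, a muscle troponin, had 19.3, 21.5 and 18.6 CPM in RU521 injured libraries, against 86.8, 7.59 and 34.7 CPM in WT injured libraries. WT injured replicate 1 was the highest of the 6 libraries in both.

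**Figure D5:**
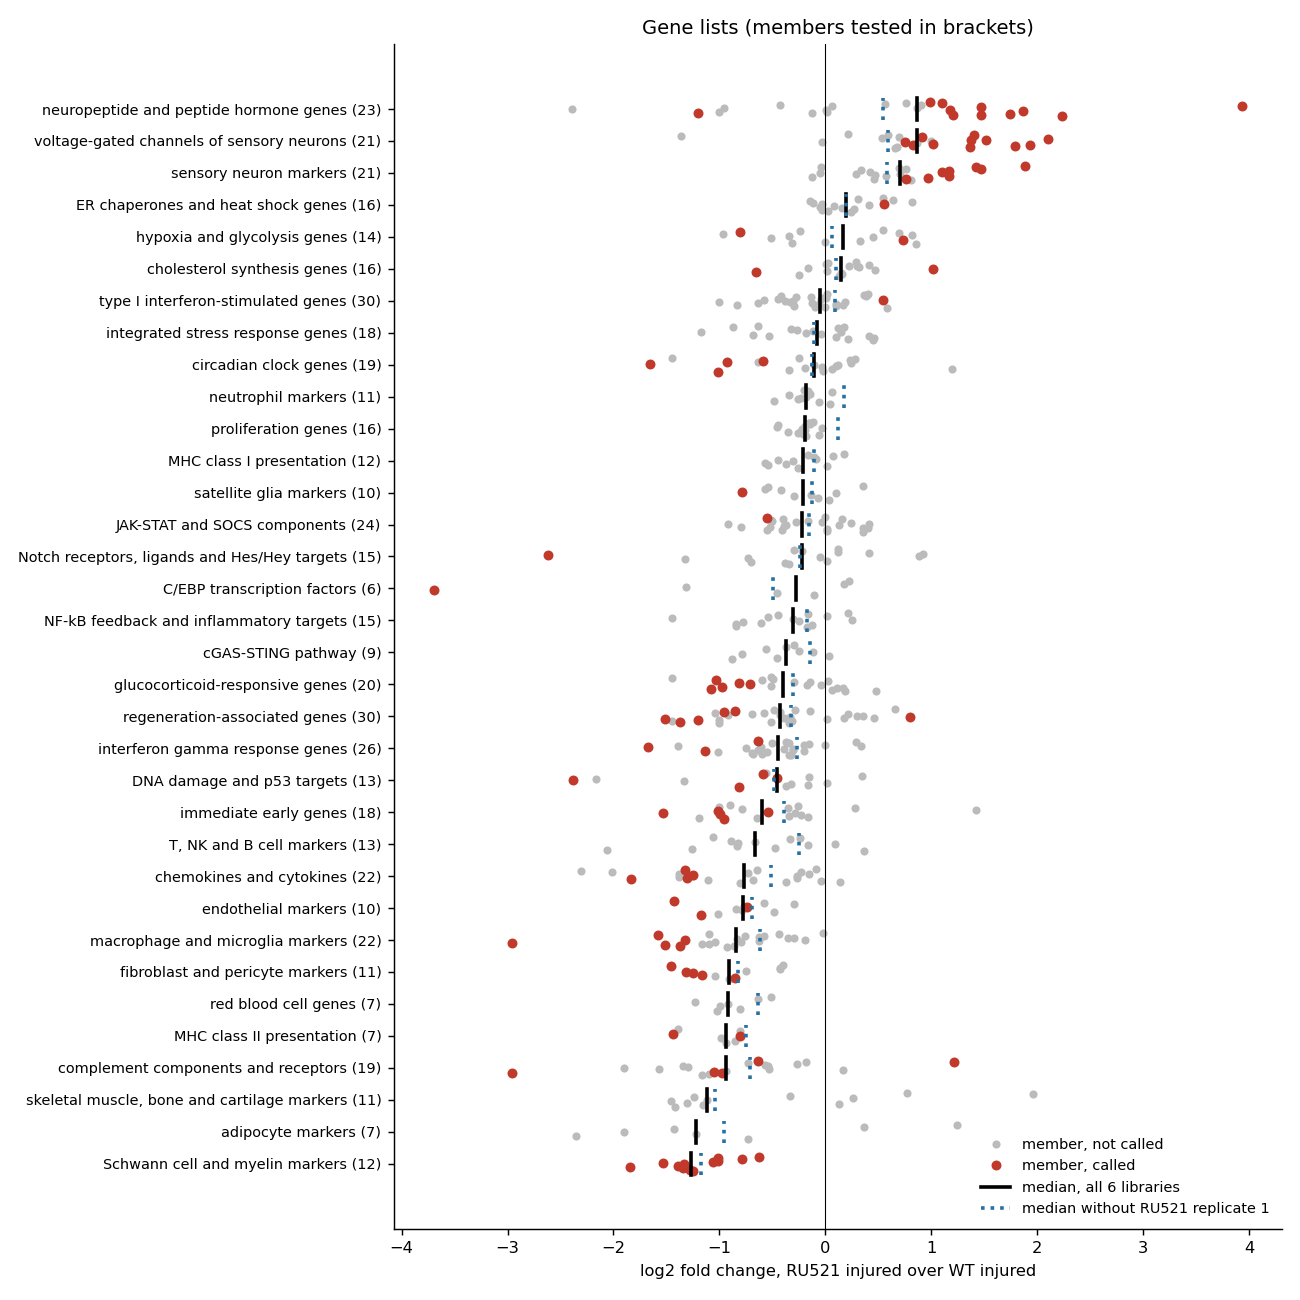
Log2 fold change (RU521 injured over WT injured ganglia, horizontal axis) of the tested members of the 34 gene lists, ordered by median. Red points are called members and grey points members not called. Black lines are medians with all 6 libraries and dotted blue lines those without RU521 replicate 1. Neuropeptide genes (median 0.87) and Schwann cell and myelin markers (median -1.27) stand at the ends.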

How the data were processed

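Poly(A) RNA of ganglia was amplified with SMART-Seq v4 and sequenced in pairs on a DNBSEQ-G400, per the labels' protocols. The deposited values are raw counts per gene symbol, made by the authors with featureCounts 2.0.1 on Ensembl release 101 (GRCm38), per the file headers: paired primary alignments, mapping quality 10 or more, without strand, so overlapping and antisense genes are uncertain. The submitters' processing notes name Trim Galore and STAR. The command names 20 alignments, of which 15 have a column. The deposited gene lengths served only as annotation and no value was divided by them, so CPM compare libraries and not genes. The retinal counts were not used here.

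The test was edgeR 4.0.16's quasi-likelihood test (TMM, filterByExpr by group with a minimum count of 10, prior count 0.125) on all 15 libraries, which share 1 estimate of spread, with the contrast RU521 injured minus WT injured. CPM are TMM-scaled. SE is the log2 fold change over the square root of F. Named genes are Cgas, Cartpt, Cebpd and C1qc, the 12 largest increases and 12 largest decreases among called genes with a mean of at least 5 CPM in the higher group, no overlap, and no predicted, clone, pseudogene or mitochondrial symbol, 6 each way for the fit without RU521 replicate 1, and up to 4 called members per list, or the 2 highest where none was called. Other genes named, including further list members, were chosen after their values were seen. Some genes that the rule names are not reported here. The members and all 34 lists were chosen with earlier results of these data known. The code was tested on simulated data. Alternatives were DESeq2 size factors, dropping the low-count filter, DESeq2's own test (1.42.0), limma 3.58.1 (voom, sample weights), the 6 libraries alone, a replicate block, each of the 6 libraries left out and, added after seeing the data, a covariate for how many genes each library detected.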

Additional observations from a re-analysis of the deposited data

How the results depend on the processing

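With all 6 libraries, the count of 1774 genes was 1823 with DESeq2 size factors, 2368 with no low-count filter, 1773 in the 6 libraries alone and 1395 with a covariate for how many genes each library detected, an alternative chosen after seeing the data. It was 2892 with DESeq2 and 6175 with limma-voom. Leaving out 1 library at a time gave 476 to 2725. Without RU521 replicate 1, the count of 691 was 702 with DESeq2 size factors, 1204 with no filter, 1490 with DESeq2, 1635 with limma-voom, 1658 in these libraries alone and 1336 with the covariate. Leaving out a further library gave 8 to 505, the lowest without RU521 replicate 3, where the lone RU521 library is assumed to vary like the other groups, and 175 without WT injured replicate 2 or 3. The causes were not tested. Of 106 named genes with a fit, 85 were called and 46 were called under every alternative, and none of the 85 changed sign. The labels number the replicates, but nothing says that numbers pair samples: deviations of same-numbered libraries correlated at 0.14, 0.13 and -0.01. With a replicate block the counts were 2134 and, without RU521 replicate 1, 1040. Depth limits the genes with few counts, and amplified reads carry no molecular identifiers.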

Other observations

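Hes1 was compared with every other gene over the 9 ganglion libraries outside the comparison (WT sham, Ptpn2 KO injured and Ptpn2 KO sham), a search chosen after seeing the data. Of 11783 genes searched, 17 had a Pearson r of at least 0.9 with Hes1 on log2(CPM + 1), a description over libraries that share one series and preparation. In the RU521 comparison, 8 of the 17 were lower and none higher, while 6.08% of the genes searched were lower. Their median log2 fold change was -1.22, against 0.03 for the genes searched. The mean log2(CPM + 1) of the 17 together with Hes1 itself was 4.36, 3.75 and 3.53 in RU521 injured libraries, against 5.20, 5.15 and 5.08 in WT injured libraries. It was 3.94, 5.13 and 5.001 in WT sham, 4.06, 4.86 and 5.03 in Ptpn2 KO injured and 4.81, 4.45 and 3.90 in Ptpn2 KO sham libraries, so single libraries of each of these groups were low as well.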
